A study of Rattus norvegicus with 8 samples.

Results

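A set of 10 genes of the triad, the junction at which a skeletal muscle fibre turns an action potential into calcium release, were listed by symbol for description in rat diaphragm, the main muscle of inspiration. Of these 10 genes, 8 were matched to a row of the count table of 17055 rows, and all 8 were among the 10522 genes that had enough counts to test. They are the calcium channel subunit genes Cacna1s, Cacna2d1, Cacnb1 and Cacng1, the junctophilin genes Jph1 and Jph2, and the partner genes Trdn and Stac3. The ryanodine receptor genes Ryr1 and Ryr3 were not analysed here. RNA was sequenced from the diaphragms of 8 rats of the Sprague-Dawley strain, taken 16 weeks after an operation, with 1 library per animal. In 4 animals (MI, replicates 1 to 4) myocardial infarction had been caused by ligating the left anterior descending coronary artery, and in 4 Sham animals (replicates 5 to 8) a similar operation was done without the ligation. Age at surgery, sex and infarct size are not in the labels used here, so the MI animals are defined by the operation alone.

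In a triad, a T-tubule, an inward fold of the surface membrane, lies between paired sacs of sarcoplasmic reticulum, the calcium store. The voltage-gated channel of the T-tubule (the dihydropyridine receptor) changes shape on depolarisation and, through direct contact, opens the ryanodine receptor of the store, so that skeletal muscle, unlike heart muscle, contracts without needing calcium to enter from outside. Junctophilins hold the membranes together, triadin ties the release channel to calsequestrin, the calcium-binding protein of the store, and Stac3 is an adaptor without which the voltage sensor fails to reach its place and trigger release.

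The libraries held 8566143 to 15944048 counts in MI and 7941402 to 24967251 counts in Sham, and the members were counted 43 to 61721 times in a library. Levels are given as counts per 1000000 counts of a library (CPM) after trimmed-mean (TMM) scaling. The skeletal muscle genes Acta1 and Ckm were at no less than 41268 and 25508 CPM in any library, and the 5 of 6 skeletal muscle markers with a row summed to 81601 to 106411 CPM in MI and 86486 to 106990 CPM in Sham. Cardiac markers (8 of 8 with a row) summed to 55.0 to 152.5 CPM in MI and 18.9 to 104.3 CPM in Sham. Of these, Myh6 was at 3.28 to 126.7 CPM over the 8 libraries, Tnnt2 at 3.57 to 21.7 CPM and Tnni3 at 5.98 to 20.5 CPM, while Myl7 had 0 counts in every library and Nppa and Nppb at most 1. Their directions differed. The mean was 82.0 CPM in MI and 30.8 CPM in Sham for Myh6. For Tnnt2 it was 8.09 CPM in MI and 12.3 CPM in Sham, and for Tnni3 10.9 CPM in MI and 13.6 CPM in Sham. The part of cardiac transcripts in the levels of the triad genes was not tested. CPM does not correct for transcript length, so levels were compared between animals and not between genes. Whether a lower level means fewer muscle fibres or less RNA per fibre cannot be told apart in whole tissue.

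For none of the triad genes measured was the difference between MI and Sham large enough, against the spread between animals, to pass the test. In the edgeR quasi-likelihood test 0 of 8 members had an adjusted p under 0.05, with adjusted p-values of 0.641 to 0.975, and 0% of all 10522 genes did. At an unadjusted p under 0.05 edgeR again gave 0 of 8 members, where the share over all genes was 8.14% (856 genes, and 514 without Sham replicate 7). DESeq2 called 0 of 8 members and 0.112% of 13428 genes at an adjusted p under 0.05, and 0 members and 6.09% of genes at an unadjusted one. With limma-voom 0 of 8 members passed either way, beside 0% of genes after adjustment and 8.54% before it. The groups overlapped for every member, while 4.55% of all genes had no overlap, 2.09% with MI higher and 2.46% with MI lower. The median log2 fold change of the 8 members was -0.056, with 3 above 0 and 5 below, beside a median of -0.0070 over all genes, of which 48.7% were above 0 and 51.3% below.

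**Figure D1:**
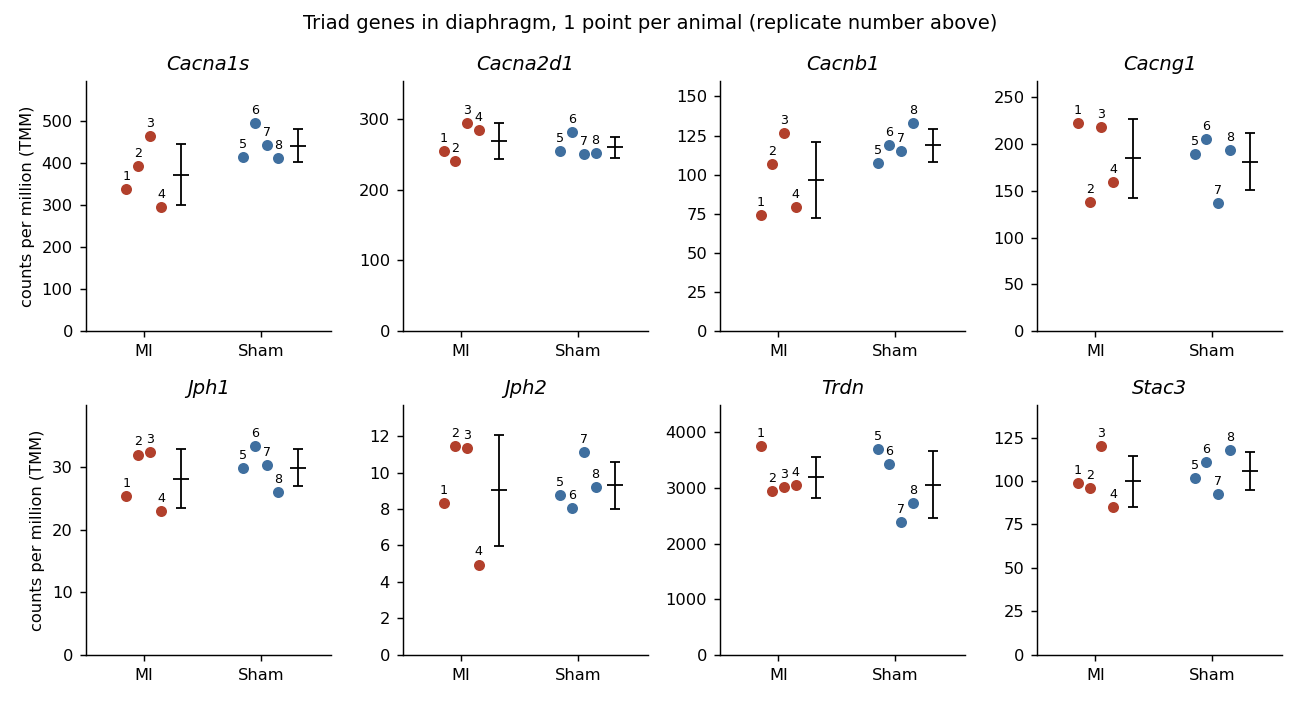
Each panel plots the TMM-scaled CPM of 1 triad gene on an axis from 0, with 1 point per animal, its replicate number above it, and the mean with SD (n = 4 each) beside MI and Sham. MI and Sham overlap in every panel, and MI replicate 4 is lowest for Cacna1s, Jph1, Jph2 and Stac3.

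Cacna1s encodes the pore and voltage sensor of the T-tubule channel. Its level was 337.1, 391.9, 464.6 and 295.3 CPM in MI replicates 1 to 4, against 414.1, 495.8, 441.9 and 411.6 CPM in Sham replicates 5 to 8. In MI, 3 animals thus lay below all 4 Sham animals, while MI replicate 3 lay inside the Sham range. The log2 fold change was -0.24 ± 0.13 (SE), with a 95% interval of -0.53 to 0.04 and an edgeR adjusted p of 0.641. It was -0.15 without MI replicate 4.

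Cacnb1 encodes the intracellular beta subunit, which carries the channel to the membrane and takes part in coupling. Its level was 74.2, 106.6, 126.5 and 79.2 CPM in MI replicates 1 to 4, against 107.6, 119.1, 115.2 and 133.2 CPM in Sham replicates 5 to 8. MI replicates 1, 2 and 4 again lay below every Sham animal, replicate 2 by less than 1 CPM, and MI replicate 3 lay within the Sham range. The log2 fold change was -0.30 ± 0.16, with a 95% interval of -0.65 to 0.06 and an edgeR adjusted p of 0.643. It was -0.19 without MI replicate 1. Without MI replicate 3, Cacna1s was at -0.36 and Cacnb1 at -0.45, with unadjusted edgeR p-values of 0.00902 and 0.00661 and an adjusted p of 0.488 for each. In that fit 9.47% of all genes had an unadjusted p under 0.05, and 5.4% were lower in MI with such a p. Without MI replicate 4, 0 of 8 members had an unadjusted p under 0.05 in edgeR, beside 5.6% of all genes and 3.21% lower in MI.

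Cacna2d1 encodes the precursor of the extracellular alpha2-delta subunit, the target of gabapentin. Its level was 255.2, 240.9, 294.5 and 283.8 CPM in MI replicates 1 to 4, against 254.7, 281.6, 250.5 and 251.6 CPM in Sham replicates 5 to 8. The highest library was 1.22 times the lowest, the smallest such ratio of the 8 genes, and the groups overlapped. The log2 fold change was 0.05 ± 0.08, with a 95% interval of -0.14 to 0.23. With 1 library left out it ran between 0.0066 (without MI replicate 3) and 0.10 (without Sham replicate 6).

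Cacng1 encodes the gamma subunit, a membrane protein of the skeletal channel that dampens its current. Its level was 222.9, 138.5, 218.6 and 160.0 CPM in MI replicates 1 to 4, against 189.9, 205.4, 136.8 and 193.4 CPM in Sham replicates 5 to 8. High and low animals occurred in both groups, and the log2 fold change of 0.03 ± 0.18 changed sign without MI replicate 1 (-0.08), MI replicate 3 (-0.06) or Sham replicate 7 (-0.09).

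**Figure D2:**
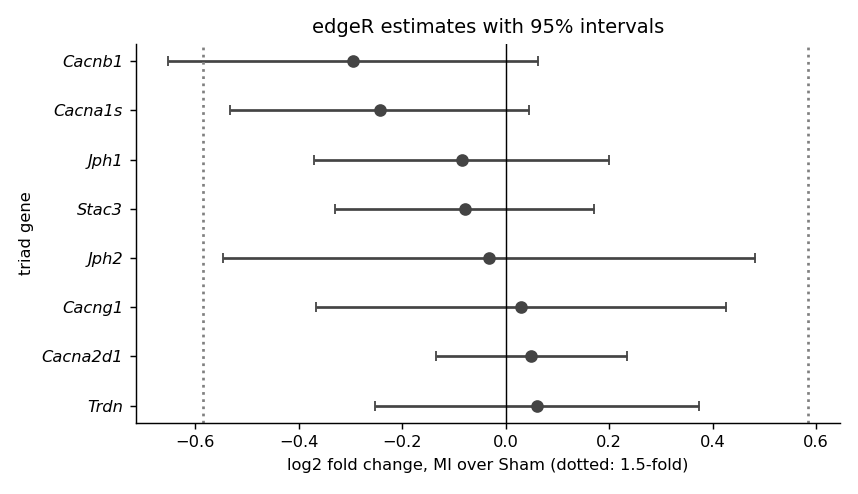
Points are edgeR log2 fold changes of MI over Sham for the 8 triad genes and bars their 95% intervals, with dotted lines at a 1.5-fold difference in either direction. Every interval includes 0, and only that of Cacnb1 reaches beyond a dotted line.

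The 2 junctophilin genes measured, which encode the bridges between T-tubule and store, had the fewest counts of the 8 members, a figure that also depends on transcript length. Jph1, the main skeletal form, was at 25.4, 32.04, 32.4 and 22.9 CPM in MI replicates 1 to 4, against 29.9, 33.3, 30.4 and 26.1 CPM in Sham replicates 5 to 8. MI replicates 1 and 4 were the lowest of the 8 animals. The log2 fold change of Jph1 was -0.09 ± 0.13, with a 95% interval of -0.37 to 0.20, and without MI replicate 4 it was -0.0017.

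Jph2, the form shared with heart, was at 8.35, 11.4, 11.3 and 4.96 CPM in MI replicates 1 to 4, against 8.79, 8.04, 11.1 and 9.23 CPM in Sham replicates 5 to 8. The lowest value rests on 43 counts, a counting error of 15.2%. MI replicate 4 was the lowest of the 8 animals, and the other 3 MI animals overlapped with Sham. The log2 fold change was -0.03 ± 0.23 and turned to 0.15 without MI replicate 4, to 0.07 without Sham replicate 7 and to 0.0037 without MI replicate 1.

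Stac3 was at 98.8, 95.9, 119.9 and 84.8 CPM in MI replicates 1 to 4, against 101.5, 110.8, 92.7 and 117.9 CPM in Sham replicates 5 to 8. Its groups interleaved, with a log2 fold change of -0.08 ± 0.11 and a 95% interval of -0.33 to 0.17. It was -0.01 without MI replicate 4 and -0.02 without Sham replicate 8, and -0.17 without MI replicate 3.

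Trdn encodes triadin. It was at 3747, 2952, 3014 and 3053 CPM in MI replicates 1 to 4, against 3698, 3433, 2381 and 2735 CPM in Sham replicates 5 to 8. In MI, replicate 1 was high and the other 3 nearly level, while Sham animals spread on both sides of them. The log2 fold change was 0.06 ± 0.14, with a 95% interval of -0.25 to 0.37, and the sign turned without MI replicate 1 (-0.03) or Sham replicate 7 (-0.05). Over the 8 genes, 7 of the 95% intervals lay inside a 1.5-fold difference in either direction. The exception was Cacnb1, whose interval ran from 0.636 to 1.04 as a fold of Sham.

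Promoter windows were looked up for the 10 listed genes in a RefSeq table of the GRCr8 assembly, and 7 had an entry. Cacnb1, Cacng1 and Jph1 had none. The 250 bases before the start are shown for Cacna1s and Stac3, which encode the voltage sensor and its adaptor, and for Trdn as a member whose window lacks the motif described next. They lie at chr13:50045418-50045667 (plus strand), chr7:65228225-65228474 (plus strand) and chr1:26229600-26229849 (minus strand). Capitals mark CAGCTG, a form of the E-box, the motif that myogenic transcription factors such as MyoD and myogenin bind.
Cacna1s: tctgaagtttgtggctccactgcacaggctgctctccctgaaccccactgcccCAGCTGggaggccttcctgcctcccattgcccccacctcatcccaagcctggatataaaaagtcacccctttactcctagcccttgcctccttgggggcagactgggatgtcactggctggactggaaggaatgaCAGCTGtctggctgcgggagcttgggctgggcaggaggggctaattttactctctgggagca
Stac3: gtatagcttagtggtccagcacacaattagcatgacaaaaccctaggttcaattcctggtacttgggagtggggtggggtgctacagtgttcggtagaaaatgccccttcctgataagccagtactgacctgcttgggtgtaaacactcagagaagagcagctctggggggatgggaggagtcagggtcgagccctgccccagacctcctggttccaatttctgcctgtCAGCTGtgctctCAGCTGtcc
Trdn: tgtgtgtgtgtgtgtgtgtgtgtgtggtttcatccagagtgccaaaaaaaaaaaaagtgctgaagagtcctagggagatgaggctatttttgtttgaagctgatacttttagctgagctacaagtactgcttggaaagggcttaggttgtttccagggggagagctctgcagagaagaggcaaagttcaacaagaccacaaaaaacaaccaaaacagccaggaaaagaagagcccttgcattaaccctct
CAGCTG reads the same on both strands, and every match is also a match of the looser E-box CANNTG. It began 197 and 62 bases before the start in Cacna1s and 21 and 9 bases before it in Stac3. It was not in the windows of the other 5 listed genes with an entry. Of 33469 such windows in the table, 11.97% held CAGCTG at least once, 1.04% held it more than once and 65.5% held CANNTG. The motif was chosen after the levels had been seen, and a match says only that these letters are there.

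The members did not move as 1 block across animals. Cacna1s, Jph1, Jph2 and Stac3 had their lowest value in MI replicate 4, at -0.44, -0.33, -0.83 and -0.27 log2 CPM from the mean of the 8 libraries. Cacnb1 was lowest in MI replicate 1, at -0.51. Cacng1 and Trdn were highest in that same animal, at 0.31 and 0.28, and lowest in Sham replicate 7, at -0.40 and -0.38.

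**Figure D3:**
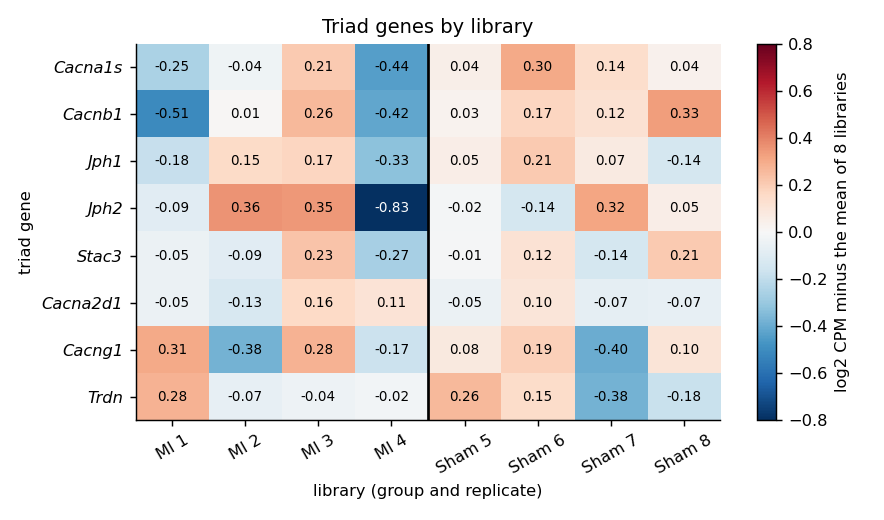
Colours and numbers give each triad gene's log2 CPM in each library minus its mean over the 8 libraries, with MI left of the black line and Sham right of it; the colour scale stops just short of the lowest value. Cacna1s, Cacnb1 and Jph1 are low together in MI replicates 1 and 4, where Jph2 ranges from -0.09 to -0.83, while Cacng1 and Trdn are high in MI replicate 1 and low in Sham replicate 7.

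Of 28 pairs of members, Cacna1s and Jph1 had the highest correlation of log2 CPM over the 8 animals. Pearson's r was 0.88 (exact permutation p = 0.00362, 0.101 after Benjamini-Hochberg adjustment over the 28 pairs), and Spearman's rho was 0.86 (exact permutation p = 0.0107, adjusted 0.300). On values centred within MI and Sham, r was 0.92 (exact permutation p = 0.0156, adjusted 0.4375). Without MI replicates 1 and 4, the animals farthest from the median of Cacna1s, r was 0.52. Leaving out the farthest animals narrows the range and can itself lower r. For Cacna1s and Cacnb1, whose proteins bind each other, r was 0.86 (exact permutation p = 0.0113, adjusted 0.158) and rho 0.71 (exact permutation p = 0.0576, adjusted 0.463). For this pair r was 0.79 on values centred within MI and Sham (exact permutation p = 0.115, adjusted 0.479), and 0.36 without the same animals. Cacna1s and Trdn had an r of -0.18 (exact permutation p = 0.668, adjusted 0.981) and a rho of -0.17 (exact permutation p = 0.703, adjusted 0.916), and r was 0.16 without those animals. After adjustment 0 of 28 pairs passed. The values share the scaling of each library. The animal numbers fall into a range of 3 and a range of 5 animals, too few for a correlation within either.

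Fibre type and transcript length were set beside the members, since fast fibres carry more triads than slow ones, and counts of long transcripts can depend on RNA quality. Fast-fibre genes (11 of 11 with a row, among them Myh1, Myh2, Myh4 and Atp2a1) summed to 54620 to 85487 CPM in MI and 59971 to 88924 CPM in Sham. Slow-fibre genes (10 of 10, among them Myh7 and Tnnt1) summed to 27635 to 31509 CPM in MI and 26517 to 35225 CPM in Sham. Both pairs of ranges overlapped. Long muscle transcripts (5 of 9 listed, namely Dmd, Macf1, Plec, Xirp2 and Flnc) summed to 3845, 5943, 6074 and 4818 CPM in MI replicates 1 to 4, against 4945 to 7375 CPM in Sham. MI replicates 1 and 4, the animals with the lowest Cacna1s, Cacnb1 and Jph1, were thus also the only ones below the Sham range for this sum. Most of the sum was Xirp2, at means of 3887 CPM in MI and 4222 CPM in Sham. The mean log2 CPM of the list, where each gene counts alike, was 7.96 and 8.09 in these animals, against at least 8.11 in Sham. By gene, the log2 fold change was 0.16 for Dmd, 0.03 for Macf1, -0.28 for Plec, -0.12 for Xirp2 and -0.28 for Flnc.

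Of 24 relations between a member and the mean log2 CPM of one of these lists, 0 passed after adjustment. Those nearest were with long muscle transcripts. For Jph1, r was 0.80 (exact permutation p = 0.0158, adjusted 0.268) and rho 0.93 (exact permutation p = 0.00223, adjusted 0.0536), and r was 0.78 without the farthest 2 libraries, MI replicate 1 and Sham replicate 6. For Cacna1s, r was 0.78 (exact permutation p = 0.0223, adjusted 0.268) and rho 0.71 (exact permutation p = 0.0576, adjusted 0.461), and r was 0.63 without those libraries. With fast-fibre genes, r of Cacna1s was 0.64 (exact permutation p = 0.0849, adjusted 0.509) and rho 0.76 (exact permutation p = 0.0368, adjusted 0.441), and r was 0.35 without MI replicates 2 and 4. MI replicate 4 also had the highest summed fibroblast markers (5 of 5 with a row), at 3263 CPM where the groups spanned 1806 to 3263 CPM in MI and 1674 to 2339 CPM in Sham. Its adipocyte markers (4 of 4) were the highest too, with ranges of 20.6 to 129.1 CPM in MI and 19.9 to 64.0 CPM in Sham. Of the 5 fibroblast markers, 3 had a log2 fold change above 0 and 2 below, from -0.13 for Pdgfra to 0.76 for Lum. Higher in MI at an unadjusted p under 0.05 in edgeR were 2 of them, Lum and Dcn, and 0 passed at an adjusted one. Erythroid markers (5 of 5) summed to 366.7 to 801.3 CPM in MI and 235.4 to 376.7 CPM in Sham, with MI replicate 4 again highest. All 5 were higher in MI at an unadjusted p under 0.05 in edgeR, beside 3.67% of all genes, and none at an adjusted one. Their log2 fold changes lay close together, at 1.02 to 1.11, so they are not 5 separate observations. Nerve markers (6 of 6) summed to 111.6 to 154.2 CPM in MI and 86.5 to 126.7 CPM in Sham. Most of it was Pmp22, at means of 104.5 CPM in MI and 86.7 CPM in Sham. Snap25 had at most 1 count and Nefl at most 5. Macrophage markers (5 of 5) summed to 55.1 to 88.2 CPM in MI and 60.3 to 129.0 CPM in Sham. Smooth muscle markers (6 of 6), mostly Des, spanned 2078 to 3118 CPM in MI and 2576 to 3071 CPM in Sham. Every macrophage and smooth muscle marker had a log2 fold change below 0. Endothelial markers (5 of 5) spanned 208.1 to 289.1 CPM in MI and 224.0 to 261.0 CPM in Sham. The part of these other cell types, and of long transcripts, in the levels of the triad genes was not tested.

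By likeness of pattern, the 3 genes closest to Cacna1s among 6613 other genes with a mean of at least 10 CPM were Anapc2, Armc9 and Ncaph2. Their levels followed it over the 8 libraries with Pearson's r of 0.980, 0.978 and 0.976, each the top of that many comparisons and so given without a test.

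Ratios between members within a library do not depend on how libraries are scaled. They compare the transcripts of 2 genes and do not measure the make-up of the channel complex, which is protein. Of 6 planned ratios, the 3 without a ryanodine receptor were computed as log2 ratios of counts. Cacnb1 over Cacna1s was 0.220, 0.272, 0.272 and 0.268 in MI replicates 1 to 4, against 0.240 to 0.324 in Sham. The mean log2 ratio was -1.96 ± 0.15 in MI and -1.89 ± 0.18 in Sham (SD, n = 4 each), a difference of -0.07 (exact two-sided permutation p = 0.600, adjusted 0.900 over the 3 ratios). The difference was smaller than the SD of either group, and its sign turned without MI replicate 1 (0.0078) or Sham replicate 8 (0.02).

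Stac3 over Cacna1s spanned 0.245 to 0.293 in MI and 0.210 to 0.286 in Sham. It had a mean log2 ratio of -1.89 ± 0.12 in MI and -2.06 ± 0.20 in Sham (SD, n = 4 each), a difference of 0.17 (exact two-sided permutation p = 0.171, adjusted 0.514). That difference was 0.11 without Sham replicate 7 and 0.26 without Sham replicate 8. Jph2 over Jph1 was at -1.70 ± 0.34 in MI and -1.69 ± 0.28 in Sham, a difference of -0.01 (exact two-sided permutation p = 0.943, adjusted 0.943). The smallest p that the 70 arrangements allow is 0.0286.

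The other subunits and Trdn over Cacna1s were added after the counts had been seen. The one with the smallest p was Cacna2d1 over Cacna1s, at 0.757, 0.615, 0.634 and 0.961 in MI replicates 1 to 4, against 0.615, 0.568, 0.567 and 0.611 in Sham replicates 5 to 8. MI replicates 1 and 4 carried most of the difference of 0.31 on the log2 scale, and MI replicate 2 was level with Sham replicate 5 (exact two-sided permutation p = 0.0571, adjusted 0.171 over the 3 added ratios). The difference was 0.17 without MI replicate 4 and 0.39 without MI replicate 2 (exact two-sided permutation p = 0.0286, the smallest that design allows). The corresponding differences were 0.28 for Cacng1 (exact two-sided permutation p = 0.257, adjusted 0.257) and 0.34 for Trdn (exact two-sided permutation p = 0.200, adjusted 0.257). Without either MI replicate 1 or Sham replicate 7 the value for Cacng1 was 0.14 and that for Trdn 0.22. Without MI replicate 2 that for Cacng1 was 0.44 (exact two-sided permutation p = 0.0571). For Trdn it was 0.47 without MI replicate 3 and 0.46 without Sham replicate 5.

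**Figure D4:**
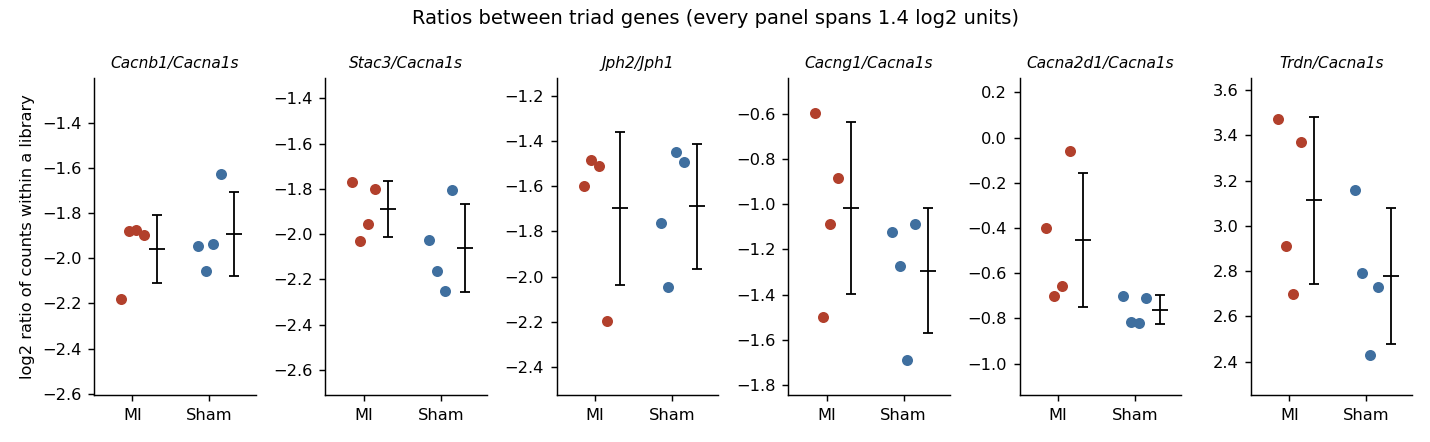
Points are log2 ratios of the counts of 2 triad genes within 1 library, in replicate order from left to right within MI and Sham, with the mean and SD (n = 4 each) beside each group. MI and Sham overlap in every panel, and Cacna2d1 over Cacna1s shows MI replicates 1 and 4 above the rest.

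The wider machinery of excitation-contraction coupling gave the same count of calls. Over 6 lists with 55 genes, 41 were tested, 17 had a log2 fold change above 0 and 24 below, and the median was -0.045. In edgeR 0 of 41 passed at an adjusted p under 0.05 in either direction, and at an unadjusted p under 0.05 0 were higher and 1 lower, beside 3.67% and 4.47% of all genes. DESeq2 called 0 of the 41. By list, the median was 0.17 for 6 other calcium channel subunits, -0.0070 for 11 other release channels and regulators, and -0.077 for 6 proteins of the store's lumen and membrane. It was -0.14 for 8 genes of triad and T-tubule structure, -0.10 for 7 genes of sarcolemmal excitation and 0.15 for 3 of store-operated calcium entry.

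**Figure D5:**
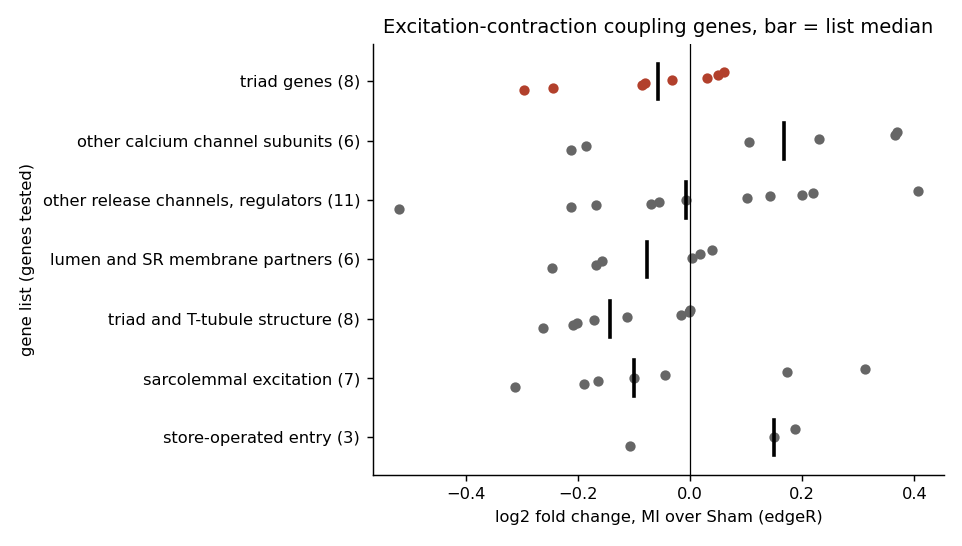
Each point is the edgeR log2 fold change of MI over Sham of 1 tested gene, by list, with the number tested in brackets and the list median as a bar. The points of most lists lie on both sides of 0, and 7 of the 8 genes of triad and T-tubule structure lie below it, some of them very near it. Triad genes are in red.

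The gene with the smallest p was Kcnj11, the pore of the ATP-sensitive potassium channel, at 52.5 ± 9.15 CPM for the MI animals and 65.1 ± 9.82 CPM for Sham (n = 4 each, SD). Its log2 fold change was -0.31 ± 0.14, with an edgeR adjusted p of 0.608. Itpr2, a release channel opened by inositol trisphosphate, was the one gene of the lists whose groups did not overlap, at 19.9 to 23.3 CPM in MI and 23.7 to 29.4 CPM in Sham, as for 2.46% of all genes in that direction. Its log2 fold change was -0.21 ± 0.10 (edgeR adjusted p = 0.625). Itpr3, a channel of the same family, had 2.28 CPM in MI and 3.27 CPM in Sham (-0.52 ± 0.24).

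Among structural genes, Speg, a kinase found at the triad, had a log2 fold change of -0.26 ± 0.14, and Dysf, a membrane repair protein that also sits at T-tubules, -0.21 ± 0.12. The sodium channel Scn4a, which carries the muscle action potential, was at -0.19 ± 0.10, and Tmem38a, a potassium channel of the store that balances charge during release, at -0.17 ± 0.09. None of these passed in edgeR.

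The calsequestrins, which buffer calcium inside the store next to triadin, did not pass the test in edgeR (adjusted p of 0.757 for Casq1 and 0.992 for Casq2). Casq1, the fast-fibre form, was at 2510 ± 382 CPM in MI and 2800 ± 495 CPM in Sham (SD, n = 4 each; log2 fold change -0.16 ± 0.14). Casq2, the form of heart and slow fibres, was at 669 ± 44.9 CPM in MI and 667 ± 92.7 CPM in Sham (0.0038 ± 0.11). The cardiac channels were close to the counting limit, Ryr2 at 1.61 CPM in MI and 1.18 CPM in Sham (0.41 ± 0.32) and Cacna1c at 1.44 CPM in MI and 1.12 CPM in Sham (0.36 ± 0.28), where 3 counts correspond to 0.120 to 0.378 CPM.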

How the data were processed

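Total RNA was extracted with TRI Reagent and libraries were made with the SMARTer Ultra Low input and KAPA Hyper kits, per the labels' protocols. The deposited table, made by the authors, holds unnormalized counts for each gene symbol and animal. Cufflinks, TopHat2, TopHat, STAR 2.5.0a, bcl2fastq and the rn5 build are named, without roles, in the submitters' processing notes. How reads were counted, on which annotation and with what use of strand, is not given in the sources used here, and overlapping genes may share reads.

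The genes of interest, gene lists and tests were chosen with earlier results of these data known. Tests used edgeR 4.0.16 (R 4.3.3; TMM, filterByExpr, robust quasi-likelihood F test) on 4 MI and 4 Sham libraries, with Benjamini-Hochberg adjustment over 10522 genes and a threshold of 0.05. SE is the log2 fold change divided by the root of F. Log2 CPM used a prior count of 2 and ratios a pseudocount of 0.5. Libraries of 1 group differed beyond sampling noise (chi-square over its degrees of freedom 12.1 to 44.3) and each counted as 1 replicate. Named genes were all members, Ryr2, Cacna1c, Casq1, Casq2, the 8 pathway genes with the smallest p (1 of them is not reported here) and the 3 genes with at least 10 CPM most like Cacna1s (the same for Ryr1 and Ryr3 was not run). Alternatives were DESeq2 1.42.0, limma-voom (limma 3.58.1), other scalings and filters, the animal number range and each library left out. The procedures were tested on simulated data.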

Additional observations from a re-analysis of the deposited data

Results flagged for a closer look

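Among 28 sets of 4 animals (8 members and 6 ratios, in MI and in Sham), 4 held an animal whose gap to its nearest neighbour was more than 0.829 of the range of the set. For normally distributed values, chance marks about 1 in 20 such sets. The 6 ratios are built from the same 8 members, so the sets are not independent, and an excess was not tested. Trdn was high in MI replicate 1, at 3747 CPM, where the other MI animals lay between 2952 and 3053. Cacna2d1 was high in Sham replicate 6, at 281.6 CPM, where the other Sham animals lay between 250.5 and 254.7. The log2 ratio of Cacnb1 to Cacna1s was low in MI replicate 1, at -2.18. That of Jph2 to Jph1 was low in MI replicate 4, at -2.20, where Jph2 rested on 43 counts.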

How the results depend on the processing

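No member passed an adjusted p of 0.05 in edgeR, DESeq2 or limma-voom in any of 16 alternatives, and of 128 log2 fold changes recomputed for the 8 members 120 kept their sign. The 8 that did not came from leaving out 1 library, where Cacng1 ranged from -0.092 to 0.14, Jph2 from -0.17 to 0.15 and Trdn from -0.050 to 0.16. At an adjusted p under 0.05 the count over all genes was 15 with DESeq2 and 0 to 1 in edgeR with a library left out (1 without MI replicate 1 or MI replicate 3). At an unadjusted one it was 856 in edgeR, and 514 (without Sham replicate 7) to 1090 (without MI replicate 2) with a library left out. Of the ratios, leaving out 1 library gave differences of -0.12 to 0.022 for Cacnb1 to Cacna1s, -0.13 to 0.16 for Jph2 to Jph1 (its sign turned without MI replicate 4 and without Sham replicates 7 or 8) and 0.17 to 0.39 for Cacna2d1 to Cacna1s, the last with an exact permutation p of 0.0286 without MI replicate 2. The cause was not tested. Over scalings, filters and tools Cacna1s ranged from -0.26 to -0.24 and Cacnb1 from -0.32 to -0.29. When the edgeR model allowed low and high animal numbers separate levels, Cacna1s was at -0.22 and Cacnb1 at -0.25. Their unadjusted edgeR p-values were then 0.148 and 0.164, and 590 genes had one under 0.05. No paired analysis was possible because MI and Sham share no replicate number in the labels. The planned ratios and relations with Ryr1 or Ryr3 were not run. With 4 animals a group and a common biological coefficient of variation of 17.3%, differences smaller than the intervals printed could not be seen. P-values of group differences and the 95% intervals of fold changes set a difference against the spread between these animals. The floor of 3 counts and the counting errors cover counting only.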

Other observations

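Most of the 8 members spread more between MI animals than between Sham animals. The coefficient of variation was higher in MI for 7 of the 8 members, against 56.9% of the 10522 genes tested. The median over the members was 18.2% in MI and 10.1% in Sham, and over all genes 13.9% in MI and 12.2% in Sham. Jph2 had the widest spread, at 34.0% in MI and 14.1% in Sham, followed in MI by Cacnb1, at 25.3% in MI and 9.07% in Sham. Trdn was the exception, at 11.7% in MI and 19.9% in Sham. In the wider lists the direction was mixed. For Casq2 the SD was 44.9 CPM in MI and 92.7 CPM in Sham, and for Dysf 13.4 CPM in MI and 7.12 CPM in Sham. The difference in spread was seen in the data and not tested. MI replicate 4, the lowest for 4 members, is 1 of only 4 MI animals, so the members are not independent here.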
